A study of Mus musculus with 6 samples.

Results

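Sphingolipid metabolism genes were taken here as 44 listed symbols that code for the enzymes, regulators and transporters of ceramide, sphingomyelin, simple glycosphingolipids and sphingosine-1-phosphate (S1P), and all 44 were present among the 23183 gene symbols of each library. They were divided into 4 steps, namely synthesis of ceramide (15 genes), sphingomyelin (9 genes), the other routes out of ceramide (12 genes) and S1P (8 genes). RNA sequencing had been done on mouse T helper 9 (Th9) cells, the CD4 T helper type that secretes IL-9. Both groups started from naive CD4 T cells of wild-type C57BL/6N spleen, obtained with an enrichment kit, and both received plate-bound anti-CD3e (1 µg/ml), soluble anti-CD28 (1 µg/ml), a neutralizing antibody to IFN-γ (10 µg/ml) and the cytokines TGF-β1 (2 ng/ml) and IL-4 (10 ng/ml) until day 3. The control group (3 libraries) had no further addition named in the labels, and the SPC group (3 libraries) also had 30 µM sphingosylphosphorylcholine (SPC, d18:1). The sources used here do not give the age and sex of the mice, a vehicle for the control or the link from library to mouse. The series text speaks of 3 independent experiments, and p-values measure the spread between these libraries.

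SPC is sphingomyelin without its fatty acid, so it is itself a member of the lipid family that these genes handle. Ceramide is built in the endoplasmic reticulum from serine and palmitoyl-CoA, and is then turned into sphingomyelin or glycosphingolipids in the Golgi, phosphorylated, or broken down to sphingosine. Sphingosine kinases make S1P from sphingosine, and S1P leaves the cell through transporters, is dephosphorylated, or is cleaved for good by S1P lyase. In lymphocytes S1P is best known as the signal for exit from lymphoid organs, and ceramide as a lipid of stress and cell death. Autotaxin, a secreted enzyme coded by Enpp2, can remove choline from SPC to leave S1P.

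Libraries held 22002050 to 33049997 counts, of which 0.115% to 0.123% fell on the 44 genes. The cells carried CD4 T cell markers in every library (6 genes, summed 1014 to 1068 CPM in control, where CPM are counts scaled to a fixed library size, and 1062 to 1166 CPM with SPC) and the 6 Th9 genes (2973 to 3056 and 3563 to 4081 CPM, with no overlap between groups). Of the Th9 genes, Il9 had 11474 to 16336 counts in control and 26649 to 32496 with SPC (log2 fold change 1.08, edgeR adjusted p = 0.0189), whereas Il4ra and Gata3 had log2 fold changes of -0.16 and -0.17 (edgeR adjusted p = 0.466 and 0.542). The markers of B cells, macrophages or monocytes, dendritic cells, NK cells, CD8 T cells and erythroid cells or platelets each summed to at most 6.34 CPM, and Ms4a1, Fcgr1, Clec9a, Ncr1, Hbb-bs, Pf4 and Ppbp had no count in any library. Markers of dendritic cells summed to 2.63 to 3.68 CPM in control and 4.16 to 6.34 CPM with SPC, those of B cells to 3.63 to 3.77 and 4.17 to 5.16 CPM, those of NK cells to 2.22 to 2.59 and 1.37 to 1.83 CPM, and those of macrophages or monocytes to 0.513 to 0.864 and 0.230 to 0.486 CPM. The sums of these 4 lists did not overlap between the groups. Over all libraries together, 1 gene held most of the counts of each list: Zbtb46 (65 to 97 counts in control, 109 to 133 with SPC), Cd79b (75 to 101 and 94 to 151), Eomes (44 to 74 and 38 to 44) and Adgre1 (12 to 21 and 4 to 6). In SPC library 1, however, Csf1r of the macrophage list had 9 counts and Adgre1 had 6. Csf1r had 1, 5 and 0 counts in control and 9, 1 and 0 with SPC. The part of these markers in the results below was not tested. Markers of stroma or endothelium summed to 7.87 to 13.3 and 6.68 to 8.43 CPM, most of it from Pecam1. In bulk RNA, fewer cells that express a gene and less RNA per cell cannot be told apart.

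The differences between SPC and control libraries were small for most sphingolipid genes. Of the 38 members with enough counts to be tested, 34 had a log2 fold change within 0.5 of 0 (89.5%, against 92.9% of all tested genes). The log2 fold change (SPC over control) was below 0 for 20 and above 0 for 18, and the median was -0.02, against 0.00 over all 12226 tested genes. None of the 38 was called at an adjusted p under 0.05 in edgeR's quasi-likelihood test with group as the only term, where 0.483% of all tested genes were called (0.327% higher, 0.155% lower). DESeq2 without a block called none either. At an unadjusted p under 0.05 edgeR had 1 member higher and 3 lower, 10.5% of those tested, beside 10.2% of all genes (5.86% higher, 4.37% lower). The labels number the libraries of each group 1 to 3 and do not state that equal numbers are pairs. With that number as a block, 5 members were called (13.2% of those tested, beside 7.08% of all tested genes, 4.02% higher and 3.07% lower). Those 5 were Cers6, Galc and B4galt5, which were lower with SPC, and Smpdl3b and Degs2, which were higher. DESeq2 with the same block called Cers6, Galc and B4galt5 (5.31% of all genes, 2.92% higher and 2.39% lower) and neither of the other two. The edgeR count with the block moved to 12 members without both libraries numbered 1, to 4 without number 2 and to 3 without number 3, while 2112, 699 and 563 of all 12226 genes were called in the same fits (866 with all libraries). The members called only without number 1 were Cers2, Degs1, Samd8, Sgpl1 and Sptlc2 as higher and Smpd2 and Ugcg as lower. At an unadjusted p under 0.05 with the block there were 5 members higher and 7 lower, 31.6% of those tested, beside 21.4% of all genes (10.7% higher and 10.7% lower).

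The 2 tests gave nearly the same fold changes and differed in the spread they were set against. Over the tested members, the library number took a median of 45.7% of the variance of log2 CPM over the 6 libraries, the treatment 26.0% and the rest 17.6%. Over all tested genes these medians were 53.3%, 16.0% and 17.1%. The number has 3 levels and the treatment 2, so that noise alone would give the number a larger share than the treatment, though not than the rest. In all 3 same-numbered pairs, 9 members were higher and 13 lower with SPC, together 57.9% of those tested, beside 43.8% of all tested genes (21.8% higher, 22.0% lower). The groups did not overlap for 10 members (26.3%, beside 16.5% of all tested genes, 8.67% higher and 7.8% lower), 3 of them higher and 7 lower with SPC. Without the block, the 95% confidence interval lay within 1 log2 unit of 0, a 2-fold change, for 32 of the 38 members, and its half-width had a median of 0.28 log2 units. Single libraries moved many of the values of the test by group alone by over 1.5 times. Of the 5 members called with the block, Smpdl3b (0.39) stood at 0.12 without SPC library 1, 0.23 without control library 3 and 0.60 without control library 1. Cers6 (-0.70) stood at -0.46 without SPC library 1, B4galt5 (-0.30) at -0.19 without SPC library 3, and Degs2 (0.29) at 0.19 without control library 1. Ugcg (-0.19) stood at -0.10 without control library 1, Degs1 (0.20) at 0.12 without control library 3, and Sptssa (0.09) at 0.05 without SPC library 1. Sgpl1 (0.15) stood at 0.24 and 0.08 without SPC libraries 1 and 2. Smpd2 (-0.21) stood at -0.32 and -0.12 without those same SPC libraries, and at -0.07 when control library 3 was left out. The values of Cers2, Smpd1, Smpd4, Asah1, Sphk2 and Sgpp1, all close to 0, moved by over 1.5 times as well.

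**Figure D1:**
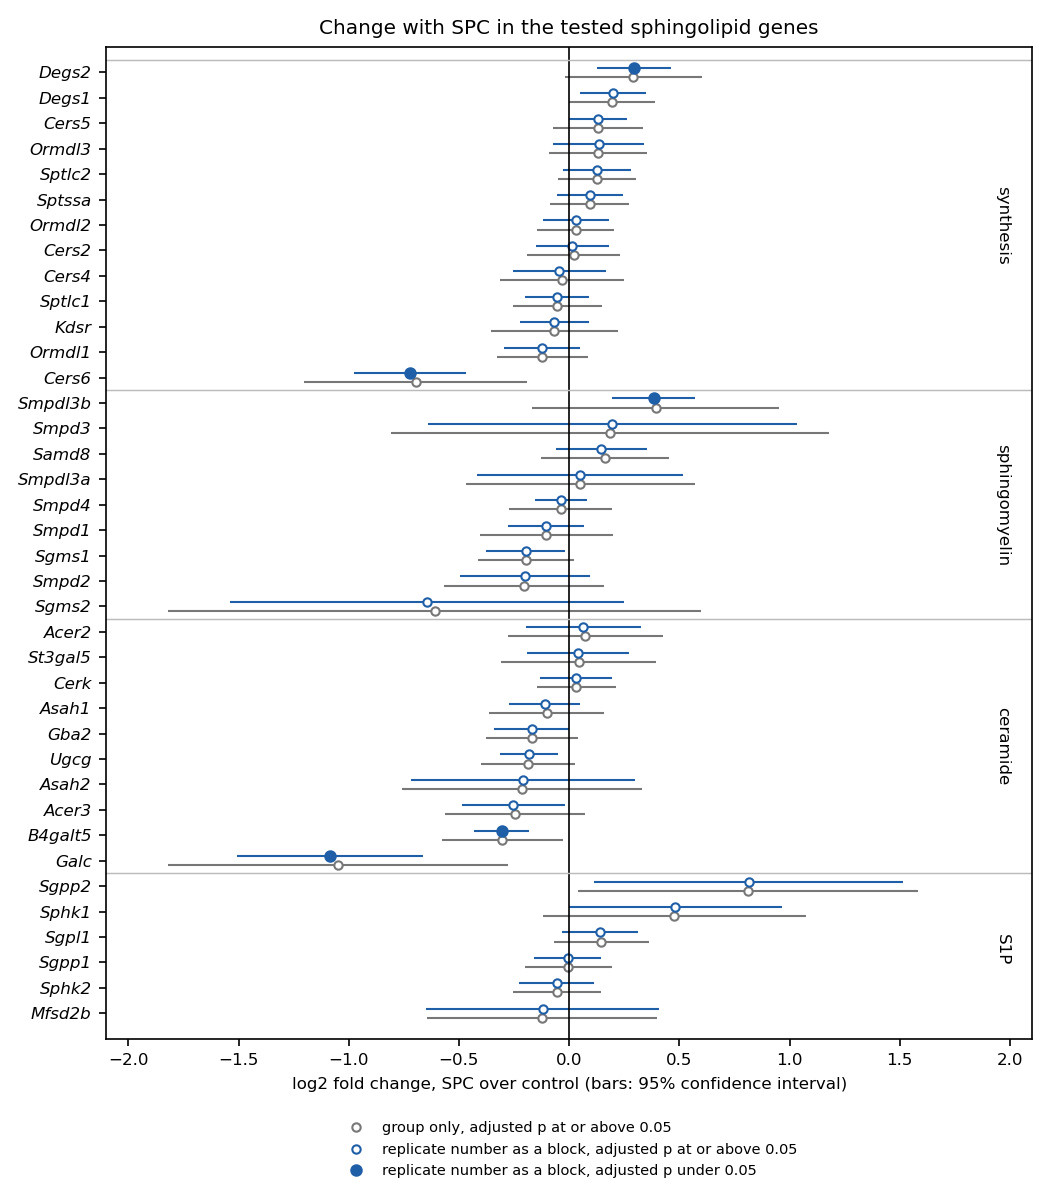
Log2 fold change of SPC over control (horizontal axis) for the 38 tested members grouped by step, with 95% confidence intervals from edgeR. Grey marks the test by group alone and blue the test with the replicate number as a block, and filled symbols have an adjusted p under 0.05. Filled symbols stand only in the blocked test, at Degs2 and Smpdl3b to the right of 0 and at Cers6, B4galt5 and Galc to the left.

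The upstream sequences of Cers6, Galc and B4galt5 are shown first, because these are the members lower with SPC in both blocked tests. Each is the 250 bases before the RefSeq start site (GRCm38.p6, the assembly that mm10 names), 5′ to 3′ on the strand of the gene. They lie at chr2:68861191-68861440 (plus strand) for Cers6, chr12:98259460-98259709 (minus strand) for Galc and chr2:167349179-167349428 (minus strand) for B4galt5. Capitals mark matches, on either strand, to the GC box GGGCGG, the CCAAT box CCAAT, the E-box CACGTG and the TATA box TATAAA, and neighbouring GC boxes can share bases.
Cers6: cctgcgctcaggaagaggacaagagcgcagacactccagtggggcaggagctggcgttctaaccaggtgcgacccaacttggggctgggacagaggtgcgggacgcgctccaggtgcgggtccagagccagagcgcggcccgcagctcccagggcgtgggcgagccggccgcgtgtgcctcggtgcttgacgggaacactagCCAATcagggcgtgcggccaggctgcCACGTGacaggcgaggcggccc
Galc: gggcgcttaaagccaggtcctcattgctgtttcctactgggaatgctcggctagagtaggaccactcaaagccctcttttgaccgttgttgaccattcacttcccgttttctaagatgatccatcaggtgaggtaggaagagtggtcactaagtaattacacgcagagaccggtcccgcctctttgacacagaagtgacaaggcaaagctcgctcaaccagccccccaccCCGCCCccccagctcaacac
B4galt5: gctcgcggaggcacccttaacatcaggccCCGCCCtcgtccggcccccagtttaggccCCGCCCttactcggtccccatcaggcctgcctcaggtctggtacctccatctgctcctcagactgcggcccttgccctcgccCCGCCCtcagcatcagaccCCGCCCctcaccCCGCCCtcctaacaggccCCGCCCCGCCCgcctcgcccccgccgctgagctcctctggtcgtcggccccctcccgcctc
The 3 windows had no combination of matches in common. B4galt5 held 7 GC boxes, Galc held 1, and Cers6 held 1 CCAAT box, 1 E-box and no GC box. Of the 32851 promoters in the table, 32.7% held the GC box, 33.9% the CCAAT box, 6.02% the E-box and 12.4% the TATA box. The corresponding shares of the 55 promoters of the 39 members found there were 58.2%, 34.5%, 14.5% and 1.82%. These 55 promoters also had more G and C (median 61.2%, against 52.4% of bases in all promoters) and more CpG (median 16 against 6). What this adds to the shares was not tested. Upstream of the other two called members there were 5 GC boxes at Degs2 and 1 CCAAT box at Smpdl3b. These are letter matches and not measured binding sites.

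The de novo synthesis step was the most highly expressed one. Its 15 genes held 55.5% of the summed level of all members, where levels are TPM, counts divided by exonic length and scaled to a fixed total, and its sum lay between 562 and 638 TPM over the 6 libraries. Ceramide synthesis begins with serine palmitoyltransferase, whose large subunits are coded by Sptlc1 with Sptlc2 or Sptlc3. Sptlc1 stood at 44.2 ± 2.83 TPM and Sptlc2 at 19.0 ± 1.23 TPM (SD over 6 libraries), whereas Sptlc3 had no count in any library. Of the small activating subunits, Sptssa stood at 118 ± 6.42 TPM and Sptssb had no count either. Sptlc1 had a log2 fold change of -0.05 ± 0.09 and Sptlc2 of 0.13 ± 0.08 (SE, edgeR adjusted p = 0.902 and 0.672). A count of 0 allows up to 3 counts in a library, counting error alone.

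Sptssa had 47.3, 51.1 and 46.9 CPM in control libraries 1, 2 and 3 and 54.98, 51.4 and 48.7 CPM with SPC. The groups overlapped (log2 fold change 0.09 ± 0.08, SE, edgeR adjusted p = 0.784). The ORMDL proteins hold serine palmitoyltransferase in check when ceramide is plentiful. Ormdl2 made up 64.9 ± 0.550% of their summed TPM, Ormdl3 20.4 ± 1.06% and Ormdl1 14.7 ± 1.07% (SD over 6 libraries). Ormdl3 was higher and Ormdl1 lower with SPC with no overlap between groups, both by small amounts (0.13 ± 0.10 and -0.12 ± 0.09 on the log2 scale, edgeR adjusted p = 0.732 for each). Exons of Dnajc14 on the other strand cover 66.7% of the exonic bases of Ormdl2, so that without strand in the counting its level is uncertain. Kdsr, the reductase of the second reaction, stood at 11.2 ± 1.44 TPM and had a log2 fold change of -0.07 ± 0.13.

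Ceramide synthases attach the fatty acid, and each prefers certain chain lengths. Cers2, which favours very long chains, had the highest level of all 44 members, 123 ± 11.7 TPM. Cers2 held 63.4 ± 2.58% of the summed ceramide synthase TPM and Cers5, which favours palmitoyl chains, 31.5 ± 3.00%. Cers4 held 2.41 ± 0.278% and Cers6 2.27 ± 0.770%, and Cers1 and Cers3, which are not among the 44 genes, never exceeded 0.0388% and 0.428%. Cers2 had 129, 127 and 120 CPM in control libraries and 110, 135 and 136 CPM with SPC. It was lower with SPC in the first pair and higher in the other two (log2 fold change 0.02 ± 0.09, edgeR adjusted p = 0.969). With the block and without number 1, Cers2 was called as higher (0.14, edgeR adjusted p = 0.0167). The log2 fold change was 0.13 ± 0.09 for Cers5 (edgeR adjusted p = 0.703) and -0.03 ± 0.12 for Cers4 (0.961).

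Cers6, which also makes ceramides with palmitoyl chains, lies on chromosome 2 (68861441 to 69114282, plus strand, mm10). It had 11.3, 13.7 and 15.1 CPM in control and 5.50, 8.96 and 10.4 CPM with SPC. Every SPC library lay below every control library, and number 1 was the lowest in both groups. The fold was 0.617, with a log2 fold change of -0.70 ± 0.22 (95% confidence interval -1.20 to -0.19) and an edgeR adjusted p of 0.281 by group alone. With the block it was -0.72 ± 0.11 (edgeR adjusted p = 0.00366, DESeq2 0.000682), and it was called in edgeR without each number in turn, at -0.82 to -0.57. The share of Cers6 in the ceramide synthase TPM was 2.84 ± 0.533% in control and 1.69 ± 0.450% with SPC (SD, n = 3 each). The corresponding shares of Cers5 were 30.4 ± 0.955% and 32.6 ± 4.25%, with the highest, 37.4%, in SPC library 1.

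**Figure D2:**
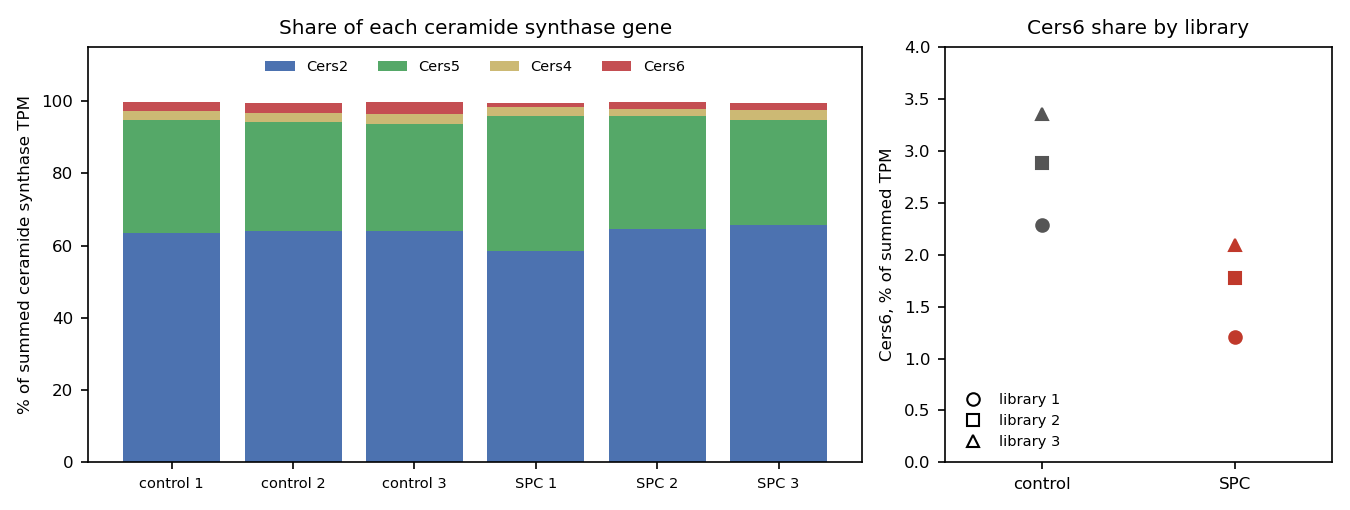
Left, the share of each ceramide synthase gene in their summed TPM (vertical axis, percent) in each of the 6 libraries, with Cers1 and Cers3 (at most 0.0388% and 0.428%) not drawn. Right, the share of Cers6 alone by library, which lay at 2.29% to 3.35% in control and 1.20% to 2.09% with SPC.

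Dihydroceramide desaturases put the double bond into the sphingoid backbone. Degs1 held 77.2 ± 3.07% of their summed TPM (89.4 ± 8.36 TPM), and Degs2, which can also add a hydroxyl group, held 22.8 ± 3.07%. Degs1 had 63.9, 63.4 and 53.4 CPM in control and 70.8, 67.5 and 68.8 CPM with SPC. The groups did not overlap, and the difference did not pass the test (log2 fold change 0.20 ± 0.09, edgeR adjusted p = 0.490, with the block 0.119).

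Degs2 (chromosome 12, 108678711 to 108702315, minus strand, mm10) had 14.4, 17.8 and 19.1 CPM in control and 18.01, 21.6 and 23.3 CPM with SPC. The groups overlapped, yet each SPC library lay above its numbered control by a like amount, 0.32, 0.27 and 0.29 on the log2 scale. The log2 fold change was 0.29 ± 0.14 by group alone (edgeR adjusted p = 0.527) and 0.29 ± 0.08 with the block (0.0442). DESeq2 with the block gave an adjusted p of 0.200, and in edgeR with the block the call was lost without both libraries numbered 2 or both numbered 3. Exons of Evl on the other strand cover 10.8% of the exonic bases of Degs2, and Evl itself had a log2 fold change of 0.20 (edgeR adjusted p = 0.730, with the block 0.105).

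The sphingomyelin genes had a summed level of 107 to 121 TPM. Sphingomyelin synthases move phosphocholine from a phospholipid onto ceramide, Sgms1 in the Golgi and Sgms2 mainly at the plasma membrane, and Samd8 codes for a relative that makes ceramide phosphoethanolamine. By TPM, Samd8 stood at 14.3 ± 2.19, Sgms1 at 5.98 ± 0.608 and Sgms2 at 0.295 ± 0.135 (SD over 6 libraries). With the longest transcript as length, Sgms1 held 51.9% and Samd8 47.0% of their summed TPM in control, and 46.1% and 53.1% with SPC, so their order depends on the length used. Sgms1 had 18.1, 19.5 and 18.8 CPM in control and 15.8, 17.9 and 15.5 CPM with SPC. All SPC libraries were below all control libraries, with a log2 fold change of -0.20 ± 0.10 (edgeR adjusted p = 0.550, with the block 0.189). Sgms2 had 4 counts in SPC library 1 and 12 to 18 in the other 5 libraries, and its interval, -1.82 to 0.60, was the widest of the tested members. Samd8 was lower with SPC in the first pair and higher in the other two (0.16 ± 0.13, edgeR adjusted p = 0.754).

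Sphingomyelinases split sphingomyelin into ceramide and phosphocholine. Smpd4, which codes for a sphingomyelinase of the endoplasmic reticulum and nuclear envelope, had the highest level of the step (38.7 ± 3.53 TPM), followed by Smpdl3b (27.0 ± 7.78 TPM) and Smpd1, the acid sphingomyelinase of lysosomes (19.9 ± 2.69 TPM). With the longest transcript as length Smpd1 (20.1 TPM) stood just above Smpdl3b (19.7 TPM). Smpd4 had 107.7, 101.5 and 87.0 CPM in control and 100.85, 102.2 and 85.6 CPM with SPC, so the groups overlapped throughout (log2 fold change -0.04 ± 0.10, edgeR adjusted p = 0.947). For Smpd1 the values were 17.5, 17.8 and 22.0 CPM and 15.6, 17.4 and 20.5 CPM (-0.10 ± 0.13, edgeR adjusted p = 0.870). Both genes followed the library number, which took 94.9% of the variance of Smpd4 and 87.1% of that of Smpd1, where the treatment took 2.06% and 10.2%. Smpd2, a neutral sphingomyelinase gene, had 6.94, 7.17 and 9.05 CPM in control and 7.62, 5.82 and 6.52 CPM with SPC (-0.21 ± 0.16, edgeR adjusted p = 0.748). Exons of Mical1 on the other strand cover 20.3% of its exonic bases. Smpd3, another neutral sphingomyelinase gene, was at most 0.559 TPM in any library (0.18 ± 0.44, edgeR adjusted p = 0.940).

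Smpdl3b (chromosome 4, 132732966 to 132757252, minus strand, mm10) codes for a membrane-anchored relative of acid sphingomyelinase that is found in immune cells. It had 16.5, 13.1 and 9.73 CPM in control and 23.0, 16.6 and 12.1 CPM with SPC. The groups overlapped, and the libraries numbered 1 were the highest in both groups and those numbered 3 the lowest. Within numbers, SPC was higher by 0.48, 0.34 and 0.31 on the log2 scale. The log2 fold change was 0.39 ± 0.25 by group alone (edgeR adjusted p = 0.679) and 0.38 ± 0.09 with the block (0.0224), where it was called without each number in turn (0.33 to 0.42). DESeq2 with the block gave an adjusted p of 0.0940. Its close relative Smpdl3a was at 2.96 ± 0.384 TPM with a log2 fold change of 0.05 ± 0.23.

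**Figure D3:**
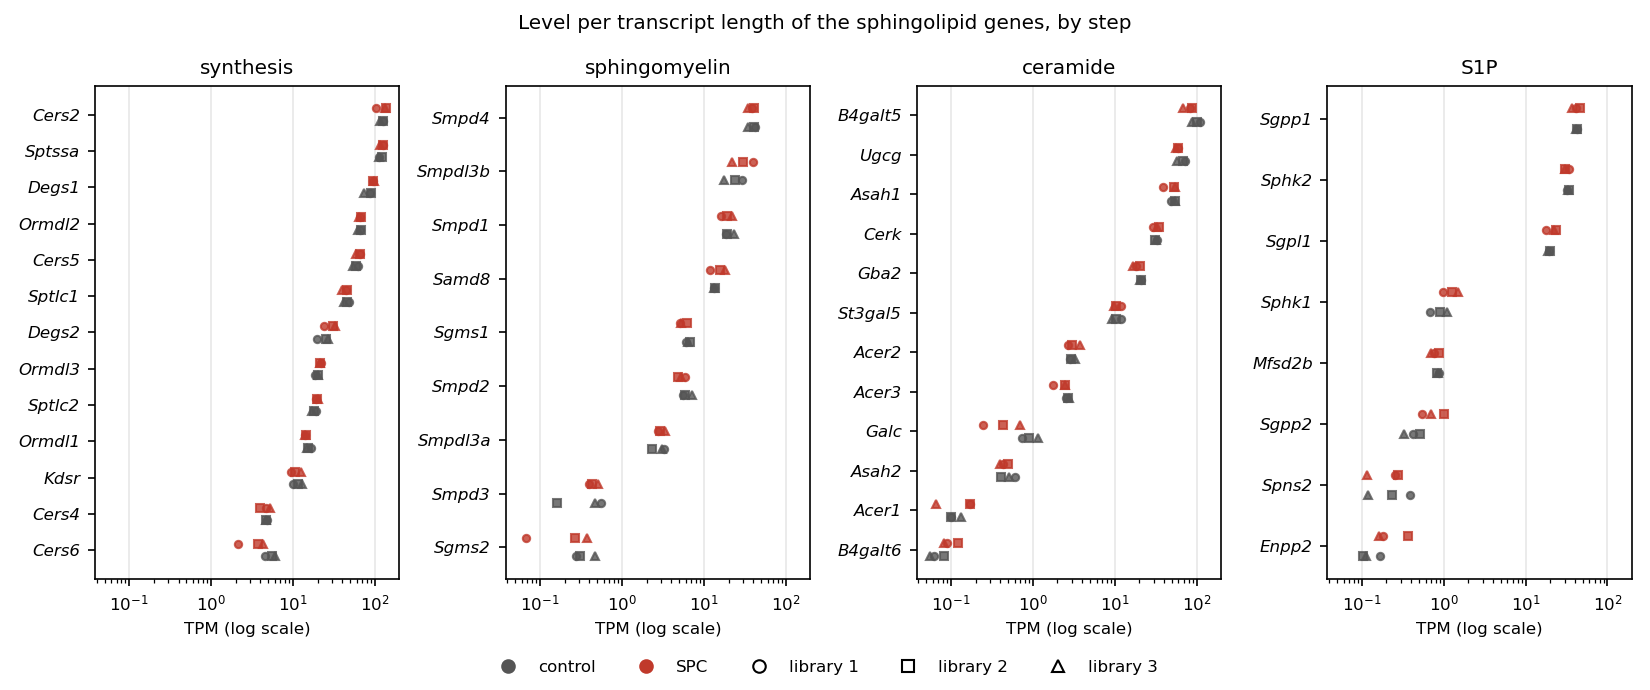
Level of each member with a count, in TPM on a log axis, in 4 panels by step. Grey symbols are control and red symbols SPC libraries, and the symbol shape gives the library number. The highest member of each panel is Cers2, Smpd4, B4galt5 and Sgpp1, and for most genes the red and grey symbols overlap.

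Of the ceramide step, 7 of the 10 tested genes had a log2 fold change below 0 (median -0.18), beside 6055 of all 12226 tested genes (median 0.00). The summed level was 287 ± 16.7 TPM in control and 254 ± 16.3 TPM with SPC (SD, n = 3 each). The sums overlapped between the groups, with control library 3 at 269 TPM and SPC library 2 at 273 TPM. B4galt5 went from 98.7 ± 10.8 to 79.7 ± 10.6 TPM and Ugcg from 66.3 ± 7.40 to 58.1 ± 2.00 TPM, so these genes made up most of the difference between the sums. Glycosphingolipids start from ceramide with a glucose, added by the enzyme of Ugcg, or a galactose. Ugcg had 106.3, 97.7 and 84.5 CPM in control and 88.2, 85.1 and 80.4 CPM with SPC. It was lower with SPC in all 3 pairs, although the groups overlapped (log2 fold change -0.19 ± 0.09, edgeR adjusted p = 0.568, with the block 0.0971).

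B4galt5 (chromosome 2, 167298444 to 167349183, minus strand, mm10) codes for the lactosylceramide synthase that acts next, and it was the highest member of the step at 89.2 ± 14.2 TPM. It had 131.8, 118.5 and 104.9 CPM in control and 104.4, 103.1 and 80.3 CPM with SPC. The highest SPC library lay just under the lowest control library. The log2 fold change was -0.30 ± 0.12 by group alone (95% confidence interval -0.58 to -0.03, edgeR adjusted p = 0.422). With the block it was -0.31 ± 0.06 (edgeR adjusted p = 0.00825, DESeq2 0.00225), and the edgeR call was lost without both libraries numbered 3. B4galt6, which codes for the other enzyme of this reaction, had 2 to 5 counts per library and was not tested, and B4galt5 held 99.9% of their summed TPM. St3gal5, whose enzyme makes the ganglioside GM3 from lactosylceramide, stood at 10.6 ± 1.13 TPM (log2 fold change 0.04 ± 0.15), and the library number took 96.6% of its variance.

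Galc codes for the lysosomal enzyme that removes galactose from galactosylceramide and from psychosine, and lies on chromosome 12 (98202294 to 98259459, minus strand, mm10). It was a lowly expressed gene, with 90, 112 and 106 counts in control and 35, 46 and 66 with SPC. These are 3.08, 3.72 and 4.82 CPM in control and 1.06, 1.76 and 2.87 CPM with SPC. Every SPC library lay below every control library. It had the largest difference of the tested members, a fold of 0.484 (log2 fold change -1.05 ± 0.34, 95% confidence interval -1.82 to -0.28, edgeR adjusted p = 0.288). With the block it was -1.09 ± 0.19 (edgeR adjusted p = 0.00631, DESeq2 0.00817), and it was called in edgeR without each number in turn, at -1.29 to -0.90.

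Galc and Gpr65 stand head to head, with annotated start sites 9.18 kb apart. Gpr65, which codes for a proton-sensing receptor also known for its response to psychosine, had 14.8, 19.5 and 23.7 CPM in control and 5.68, 5.97 and 7.61 CPM with SPC. Its log2 fold change was -1.59 ± 0.19 (edgeR adjusted p = 0.0164, with the block 1.4e-05), and the call by group alone was lost without control library 2 or SPC library 2. Within each group the libraries of Galc and Gpr65 stood in the same order, with number 1 lowest and number 3 highest. That order was not particular to this pair, since Cers6, Degs2, Sphk1, Kdsr, Smpd1, Asah1, Acer3 and Sgms2 had it in each group too. A link between Galc and Gpr65 was not tested. Gpr65 was the only other tested gene with a start site within 250 kb of that of Galc. Cers6 had no tested gene in that distance, and none of the 5 around B4galt5 or the 6 around Degs2 was called in either edgeR test. Of 10 around Smpdl3b, Sesn2 was called with the block, as higher (log2 fold change 0.36 with the block, edgeR adjusted p = 0.00582). These neighbours were looked at after the values of the 5 genes had been seen.

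**Figure D4:**
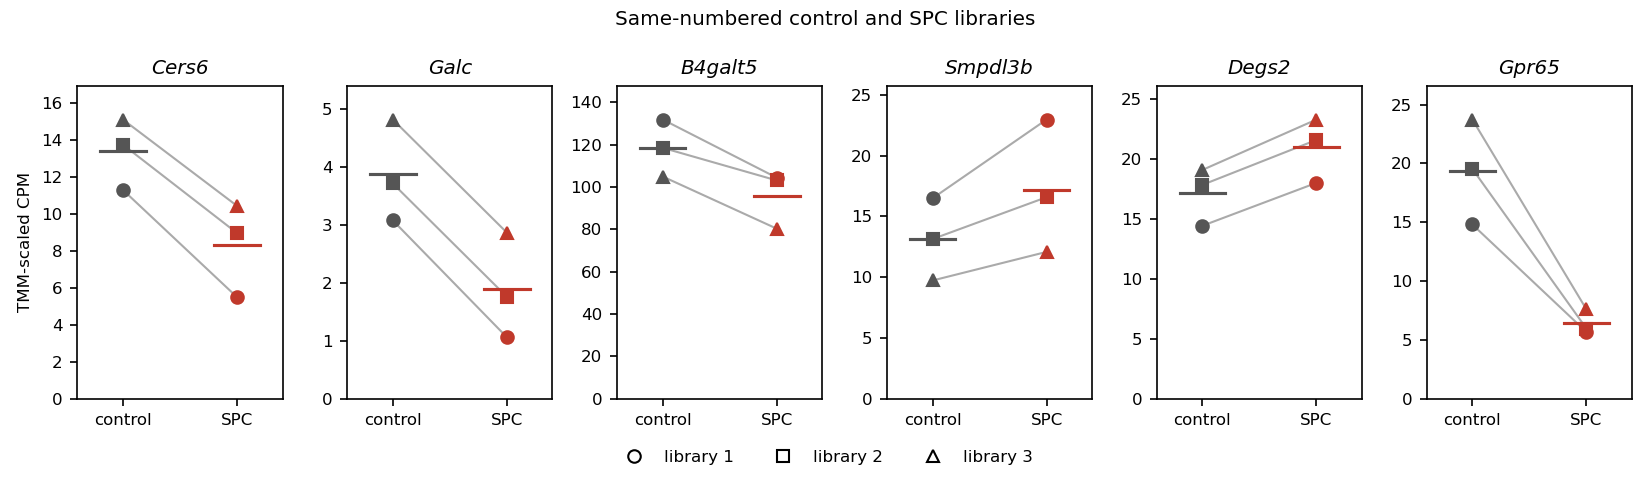
TMM-scaled CPM (vertical axis, from 0) of the 5 members called with the block and of Gpr65, the neighbour of Galc, in control (grey) and SPC (red) libraries. Lines join libraries of the same number, symbols give the number, and bars are group means. All 3 lines fall for Cers6, Galc, B4galt5 and Gpr65 and rise for Smpdl3b and Degs2.

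Ceramidases split ceramide into sphingosine and a fatty acid. Asah1, the lysosomal acid ceramidase gene, held 89.1% of the summed ceramidase TPM at 50.2 ± 6.14 TPM. It had 45.9, 50.3 and 51.0 CPM in control and 37.8, 49.0 and 50.4 CPM with SPC, with SPC library 1 apart at the low end (log2 fold change -0.10 ± 0.11, edgeR adjusted p = 0.849). Acer2 and Acer3, the ceramidases of the Golgi and of the Golgi and endoplasmic reticulum, stood at 3.08 ± 0.390 and 2.45 ± 0.363 TPM. Acer3 was lower in every SPC library than in any control library (-0.24 ± 0.14, edgeR adjusted p = 0.633), and Asah2, the neutral ceramidase gene, had 0.476 ± 0.0801 TPM. The log2 fold change was 0.07 ± 0.16 for Acer2 and -0.21 ± 0.24 for Asah2 (edgeR adjusted p = 0.928 and 0.849). Acer1 had 1 to 4 counts per library and was not tested. Cerk, which codes for ceramide kinase, had 32.0 ± 2.05 TPM and a log2 fold change of 0.03 ± 0.08. Gba2, the glucosylceramidase gene outside the lysosome, did not overlap between the groups and was lower with SPC by a small amount (-0.17 ± 0.09, edgeR adjusted p = 0.612).

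Of the S1P step, none of the 6 tested genes was called in either edgeR test over all libraries. Sphk2, whose sphingosine kinase is found in the nucleus and mitochondria, held 96.8% of the sphingosine kinase TPM at 32.3 ± 1.62 TPM, and Sphk1, the mainly cytosolic one, stood at 1.07 ± 0.279 TPM. Exons of Dbp and Rpl18 on the other strand cover 21.9% of the exonic bases of Sphk2. Sphk2 had 37.5, 38.6 and 38.4 CPM in control and 40.9, 34.7 and 34.5 CPM with SPC, so the groups overlapped (log2 fold change -0.05 ± 0.09, edgeR adjusted p = 0.900).

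Sphk1 had 27, 36 and 32 counts in control and 45, 43 and 45 with SPC. Scaled to depth these are 0.924, 1.19 and 1.45 CPM and 1.37, 1.65 and 1.96 CPM. Each SPC library lay above its numbered control, while the groups overlapped (log2 fold change 0.48 ± 0.26, 95% confidence interval -0.12 to 1.07, edgeR adjusted p = 0.616, with the block 0.235).

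S1P phosphatases return S1P to sphingosine, and Sgpp1 was the highest gene of the step at 41.8 ± 2.72 TPM. Sgpp1 had 66.9, 65.4 and 65.3 CPM in control and 68.5, 70.6 and 58.0 CPM with SPC (log2 fold change 0.00 ± 0.09, edgeR adjusted p = 0.993). The SPC libraries lay on both sides of the control libraries. Sgpp2, the other phosphatase gene, had 14, 17 and 8 counts in control and 21, 29 and 18 with SPC, or 0.479, 0.564 and 0.364 CPM and 0.638, 1.11 and 0.782 CPM. It was higher in every SPC library than in any control library, with the largest positive log2 fold change of the tested members, 0.81 ± 0.34 (edgeR adjusted p = 0.455, with the block 0.168). Its share of the phosphatase TPM was 0.994 ± 0.211% in control and 1.78 ± 0.444% with SPC (SD, n = 3 each).

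Sgpl1, which codes for S1P lyase, the enzyme that ends the pathway, had 33.0, 33.3 and 32.5 CPM in control and 31.9, 39.97 and 37.6 CPM with SPC. Of the SPC libraries 2 were above and 1 below the control libraries (log2 fold change 0.15 ± 0.10, edgeR adjusted p = 0.689). The S1P exporters had few counts. Mfsd2b, the exporter of red cells and platelets, stood at 0.813 ± 0.0702 TPM (-0.12 ± 0.23 on the log2 scale, edgeR adjusted p = 0.916) and Spns2, the exporter of endothelium, had 3 to 13 counts per library. Enpp2, the autotaxin gene, had 8, 5 and 4 counts in control and 10, 15 and 6 with SPC, under the limit for testing.

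The other genes of sphingolipid metabolism came from 6 lists with 86 genes in the files, 65 of them tested. By group alone edgeR called 1 gene, Gpr65 (1.54% of those tested, beside 0.483% of all tested genes), and DESeq2 called Gpr65 and Col4a3bp. With the block edgeR called 6, all lower with SPC (9.23% of those tested, beside 7.08% of all tested genes, 3.07% lower). DESeq2 with the block called 3 of the 6, Gpr65, Col4a3bp and Gm2a (4.62% of the 65, beside 5.31% of all genes, 2.39% lower). The median log2 fold change of the 65 genes was 0.02.

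Of the 10 tested genes for lipid transfer, 7 had a log2 fold change below 0 (median -0.14), beside 6055 of all 12226 tested genes (median 0.00). With the block edgeR called 2 of the 10, each as lower, beside 7.08% of all tested genes (3.07% lower). Col4a3bp codes for CERT, which carries ceramide from the endoplasmic reticulum to the Golgi for sphingomyelin synthesis. It had 93.3, 90.4 and 79.1 CPM in control and 59.6, 68.8 and 64.4 CPM with SPC. The groups did not overlap (log2 fold change -0.45 ± 0.09, edgeR adjusted p = 0.0748, with the block 0.00383). DESeq2 gave an adjusted p of 0.00204 without the block and 4.2e-05 with it. Cptp, which codes for a carrier of ceramide-1-phosphate, had a log2 fold change of -0.28 ± 0.12 (edgeR adjusted p = 0.493, with the block 0.0440), and Tex2, a lipid transfer gene, had -0.16 ± 0.07 (edgeR adjusted p = 0.488, with the block 0.131).

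Fatty acid elongases supply the acyl chains of ceramide. Of the 16 tested genes of acyl-CoA and fatty aldehyde steps (median 0.03), Elovl4 and Elovl6 were lower with the block. They made up 12.5% of those tested, beside 7.08% of all tested genes (3.07% lower). With the block they stood at -0.86 ± 0.18 and -0.20 ± 0.05 on the log2 scale (edgeR adjusted p = 0.0181 and 0.0478, by group alone 0.176 and 0.332). Of the 16 tested genes of lysosomal breakdown (median 0.06), 6.25% were called with the block, beside 7.08% of all tested genes (3.07% lower). Only 1 gene was called, as lower. It was Gm2a, the activator protein gene of ganglioside breakdown (-0.23 ± 0.05 with the block, edgeR adjusted p = 0.0238, by group alone 0.218). The gene with the next smallest p was Pla2g15 (0.25 ± 0.12, edgeR adjusted p = 0.529). None of the 6 tested genes of glycosphingolipid synthesis was called (median 0.00), and the smallest p belonged to B3gnt5, at 0.561 ± 0.185 CPM in control and 0.229 ± 0.108 CPM with SPC (edgeR adjusted p = 0.367), followed by St3gal2 (log2 fold change 0.14 ± 0.07, edgeR adjusted p = 0.603). None of the 9 other enzymes and regulators was called either (median 0.06). The smallest p there belonged to Wdr81 (-0.18 ± 0.08, edgeR adjusted p = 0.521) and Ppap2a, a lipid phosphate phosphatase gene (0.29 ± 0.14, edgeR adjusted p = 0.549).

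Of the 8 tested receptors of the list for S1P and lysophospholipids, only Gpr65 was called. This is 12.5%, beside 0.483% of all tested genes by group alone and 7.08% with the block. S1pr2 had the next smallest p (log2 fold change -0.26 ± 0.13, edgeR adjusted p = 0.572). The S1P receptor with the highest level was S1pr4 (42.7 ± 4.87 TPM in control and 48.1 ± 2.63 TPM with SPC), followed by S1pr1 (24.2 ± 2.94 and 22.3 ± 2.66 TPM), while S1pr5 had at most 3 counts in a library.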

How the data were processed

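Per the submitters' processing notes, reads were aligned to mm10 with TopHat, whose version, like the counting program, annotation and strand setting, is not given in the sources used here. Libraries came from 1.3 µg of total RNA with a kit that marks strand, per the labels. The deposited files hold raw counts per gene symbol. The 44 members and all lists were chosen with earlier results of these data known. Symbols were matched to GENCODE M21 (GRCm38), 98.36% of all and 44 of 44 members.

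Counts were tested with edgeR 4.0.16 (R 4.3.3), quasi-likelihood F test, robust, TMM scaling, filterByExpr (minimum count 10, minimum total count 15), group as the only term, and Benjamini-Hochberg adjustment over 12226 genes. SE is the log2 fold change over the square root of F. An exact permutation test of 3 against 3 cannot go below p = 0.10, so none was run. TPM used the union of exons as length. DESeq2 1.42.0, the block and left-out libraries were alternatives. The scripts were tested on simulated data.

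The pairing of numbers was checked from deviations from group means. Same-numbered libraries correlated across genes at 0.413, 0.208 and 0.508, each above 0.1. Control and SPC libraries with different numbers correlated at -0.492 to 0.0742. Deviations from a group mean cancel out within each gene, so positive same-numbered values by themselves pull the different-numbered values down. The labels state no pairing, so it rests on this check in the same data. No pair of libraries in a group agreed within counting noise (chi-square per degree of freedom 5.03 to 36.8). Members with values in each library were those called in either edgeR test and, in each step, the 3 with the smallest p and the 3 with the highest level. From each pathway list up to 2 genes with the smallest p and all called ones are named.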

Additional observations from a re-analysis of the deposited data

How the results depend on the processing

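With the replicate block, 866 genes in all, 5 members and 6 other pathway genes were called. Without a pair of that number the blocked counts were 2112, 699 and 563 genes in all (without numbers 1, 2 and 3), 12, 4 and 3 members, and 14, 3 and 2 pathway genes. DESeq2 called 279 genes, 0 members (3 at an unadjusted p under 0.05) and 2 pathway genes, and with the block, an alternative added after the data were seen, 638, 3 and 3. Without a filter on low counts edgeR called 147 genes, 0 members and 2 pathway genes, and with DESeq2 size factors 59, 0 and 1. Leaving out 1 library without the block gave 6 to 66 genes, 0 members in each case, and 0 to 1 pathway genes, with 6 genes and no pathway gene without control library 2 or SPC library 2.

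The median log2 fold change of the members lay between -0.050 and 0.027 over all alternatives. That of the pathway genes lay between 0.0029 and 0.043 when 1 library was left out, and between -0.0091 and 0.026 with the block when a pair was left out. With the union of exons as length, Cers2 held 20.4% of the TPM of its step, Smpd4 33.5%, B4galt5 32.8% and Sgpp1 42.9%. With the longest transcript as length these shares were 25.8%, 41.9%, 28.8% and 50.3%. The counts were the same in both cases, and only the lengths differed.

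Of 19 members named with values in each library, 13 kept the sign of their log2 fold change under all 14 alternatives. The other 6 changed sign close to 0. Leaving out 1 library without the block put Cers2 between -0.028 and 0.113, Smpd1 between -0.214 and 0.011, Smpd4 between -0.114 and 0.039, Asah1 between -0.178 and 0.019, and Sgpp1 between -0.058 and 0.077. Cers2 stood at -0.0063, -0.027 and -0.028 without control library 3, SPC library 2 and SPC library 3, and at 0.138 (called, edgeR adjusted p = 0.0167), -0.015 and -0.067 with the block without numbers 1, 2 and 3. Smpd1 stood at 0.011 without control library 3, Smpd4 at 0.038 and 0.039 without control library 1 and SPC library 3, Asah1 at 0.019 without SPC library 1, Sphk2 at 0.0010 with the block without number 2, and Sgpp1 at 0.016 and 0.077 without control library 1 and SPC library 3 and 0.071 with the block without number 3.

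The 2 widest intervals belonged to Sgms2 and Smpd3, which had 4 to 18 and 7 to 24 counts per library. Intervals of Galc, Sgpp2, Sphk1 and Cers6 also reached beyond 1 log2 unit, and what depth adds to them was not tested.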
